A study of Mus musculus with 8 samples.

Results

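The lysosome and autophagy genes described here are 38 of the 21532 genes measured in mouse liver, of which 24 belong to the lysosome and 14 to autophagy. They were chosen by symbol from a list of lysosomal enzymes, membrane proteins and autophagy factors, and the rule names symbols without using a value. All 38 symbols were in the table, and all 38 passed the filter on low values, a mean normalized count of at least 10. The lowest normalized count of any member in any mouse was 144, for Ctss.

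The livers came from male db/db mice, a strain made obese and diabetic by loss of the leptin receptor's function. Treatment began at 8 weeks of age and ran for 5 weeks, with 2 retro-orbital injections a week of control or AF1 peptide, each of 5 mg/kg. AF1 peptide is a synthetic peptide derived from estrogen receptor α. There were 4 control mice and 4 AF1 peptide mice with 1 library per mouse, so all mice shared the db/db genotype and no lean or uninjected group was compared here.

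The lysosome is the acidic organelle in which hydrolases break down proteins, lipids and sugars. Autophagy delivers cytoplasm and organelles to it inside double-membraned vesicles, the autophagosomes. TFEB and TFE3 are transcription factors that switch on many lysosomal and autophagy genes, and their best-known DNA motif is a form of the E-box CACGTG. In liver this system handles lipid droplets, glycogen and mitochondria in hepatocytes, and ingested material in Kupffer cells, the resident macrophages. Transcript levels do not measure the flow of material through autophagy.

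The libraries held 35260283 to 45117528 reads in control and 23031880 to 43978158 in AF1 peptide mice. The library of AF1 peptide replicate 1 stood apart. It held the highest or the lowest of the 8 values in 49.3% of the 15989 tested genes, against 12.7% to 33.4% for the other mice. Its 13 mitochondrially encoded genes took 20.81% of reads, against 34.28% to 37.78% in AF1 peptide replicates 2 to 4 and 22.38% to 34.32% in control. Its 15 Kupffer cell and macrophage markers summed to a normalized count of 5251, against 11450 to 12659 in the other AF1 peptide mice and 10526 to 13074 in control. None of these markers was at 0 in any mouse. The counts of called members are therefore given with and without this mouse.

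Many members were abundant for a liver transcript. Levels can be compared between genes only per length of exon, and on this scale (mean normalized count per kb of exon over the 8 mice) 33 of 38 members lay above the 50th percentile of the tested genes that have a length, and 11 above the 90th. The leading lysosome genes were Ctsz at 5170 per kb, Psap at 3994, Ctsd at 3934, Ctsb at 2673 and Lamp1 at 2569. These encode cathepsin Z, the precursor of the saposins that help degrade sphingolipids, cathepsins D and B, and an abundant membrane glycoprotein. The lowest were Tfeb at 72.2, Tfe3 at 69.6, Glb1 at 68.7 and Ctsf at 55.4 per kb, so both transcription factors sat near the bottom of the list. Among autophagy genes Sqstm1, the cargo receptor p62, led at 3621 per kb and was followed by Bnip3 at 2018 and Gabarapl1 at 1836. Atg12 was lowest at 62.3 per kb.

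**Figure D1:**
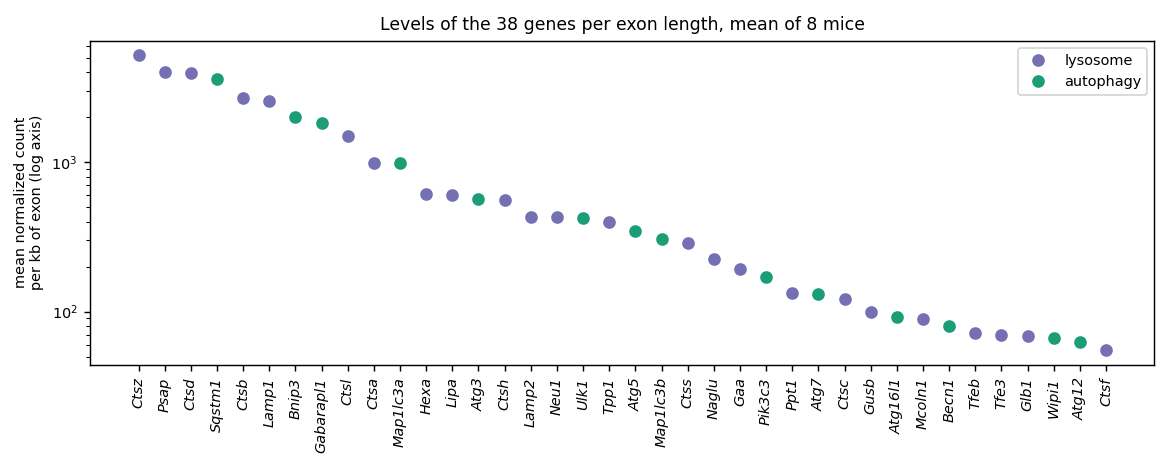
Mean normalized count per kb of exon over all 8 mice (vertical log axis) for each of the 38 genes, with lysosome genes in purple and autophagy genes in green. The levels run from 5170 per kb for Ctsz to 55.4 per kb for Ctsf.

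The E-box was frequent in the members' promoters. RefSeq promoter windows, from 250 bases before to 50 bases after the start on GRCm38.p6, were matched by symbol for 31 of 38 members. CACGTG, which reads the same on both strands, was present for 9 of 22 lysosome genes (40.91%) and 4 of 9 autophagy genes (44.44%), against 8.09% of all 27025 genes with a window and 11.17% of tested genes. The longer TCACGTGA, which contains CACGTG, was present for 3 lysosome genes and 1 autophagy gene. It was present in 1.12% of all genes with a window and 2.01% of tested genes. A match is only a description of the letters. The windows below show these 4 members because they hold the longer motif. Ctsf is added because it is the member past the threshold below, a choice made after its values were seen. Capitals mark CACGTG, and each run is 30 bases on the strand of the gene.
Ctsd, chr7:142387902-142387931, minus strand: gcgtctCACGTGacccgttgagggccaaac
Atg3, chr16:45158752-45158781, plus strand: tcgagtCACGTGaggccttaggtggcggcg
Mcoln1, chr8:3500468-3500497, plus strand: cccgctCACGTGaccgcggcgcatgtcagc
Ctsa, chr2:164833755-164833784, plus strand: aactgtCACGTGatgcagatgctCACGTGa
Ctsf, chr19:4855080-4855109, plus strand: gtggtcCACGTGcctcgcgtaaataagcga

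Counting the first transcribed base as 0, the capitals begin at -98 for Ctsd, at -71 for Atg3, at -45 for Mcoln1 and at -79 for Ctsf. In Ctsa, they begin at -12 and at 5. Of the 13 members with an E-box, 10 had a log2 fold change below 0 between AF1 peptide and control mice, with a median of -0.04. Of the 18 with a promoter window and no E-box, 15 were lower, with a median of -0.09.

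AF1 peptide was compared with control by limma on log2(normalized count + 1), and a gene was called at an unadjusted p under 0.05. Of 24 lysosome genes 1 was called (4.17%), and of 14 autophagy genes none was, against 6.19% of all tested genes. The single called member, Ctsf, was higher, and no member was called lower. Among all tested genes 3.16% were called higher and 3.03% lower. With a change of more than 1.3-fold added, no member was called, against 3.69% of all tested genes. No gene of any kind passed a Benjamini-Hochberg adjusted p of 0.05 with limma, and the smallest adjusted p was 0.763. For the 14 autophagy genes edgeR called 2 (Atg12 and Pik3c3) and DESeq2 called 1 (Pik3c3) at an unadjusted p under 0.05, all lower. Over all genes tested edgeR called 6.48% and DESeq2 6.31%.

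Differences below the threshold were mostly small and mostly negative. The log2 fold change, AF1 peptide minus control, was below 0 for 18 of 24 lysosome genes and 13 of 14 autophagy genes, which is 81.6% of members against 51.8% of all tested genes. The median was -0.09 for lysosome and -0.05 for autophagy genes, against -0.01 for all tested genes. The autophagy median ran from -0.151 without AF1 peptide replicate 1 to -0.020 without control replicate 2, and was -0.142 under equal totals. Control replicate 2 had the highest of the 8 values for 12 of 24 lysosome and 4 of 14 autophagy genes, against 2307 of all 15989 tested genes. Without it 65.8% of members were lower, against 51.6% of all tested genes. Scaled to equal total counts, 94.7% of members and 68.8% of all tested genes were lower. In that scaling 129 of 898 called genes were higher and 769 lower, against 506 higher and 484 lower of 990 as deposited. The 95% intervals of 36 of the 38 members lay within 2-fold in either direction.

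**Figure D2:**
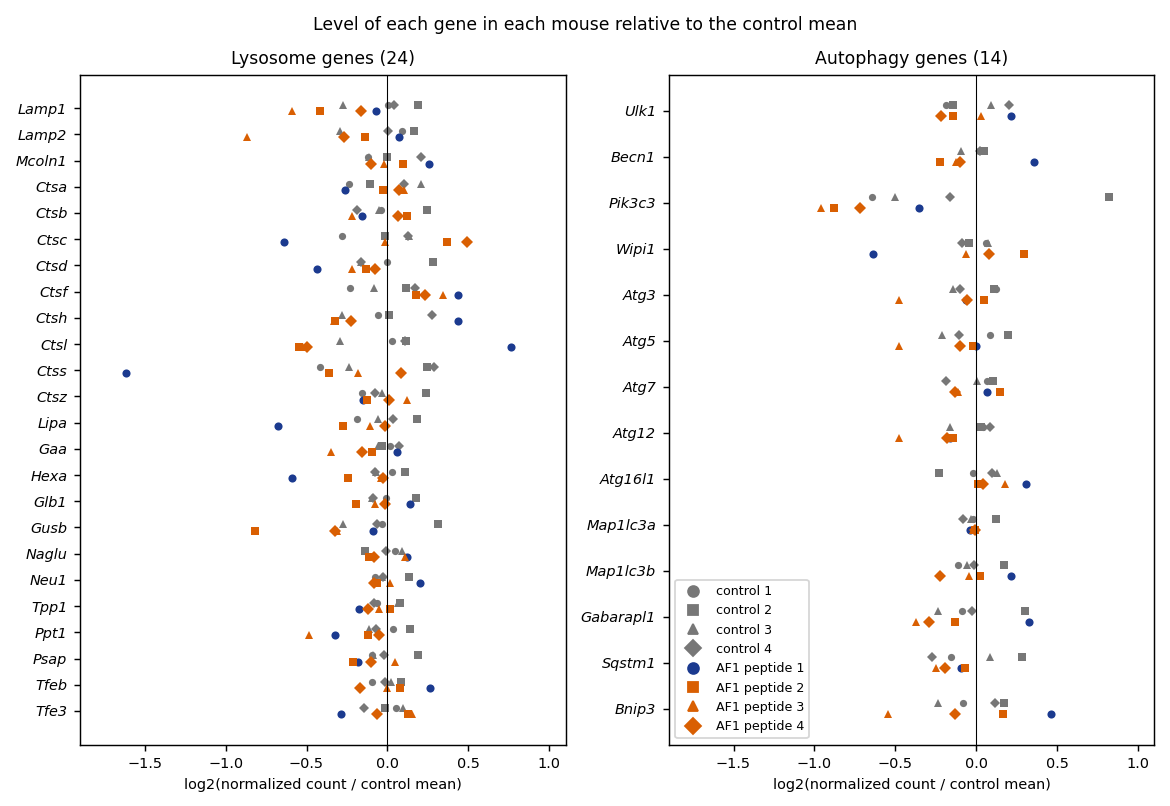
Log2 ratio of the normalized count in each mouse to the control mean, for the 24 lysosome genes (left) and the 14 autophagy genes (right), with control mice in gray, AF1 peptide replicate 1 in blue and AF1 peptide replicates 2 to 4 in orange. The blue points lie at an end of the row for 15 lysosome and 7 autophagy genes, with Ctsl at 16819 and Ctss at 144 among the farthest.

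The lysosomal membrane genes Lamp1 and Lamp2, which encode the main membrane glycoproteins of the organelle, were lower on average without passing the test. Lamp1 had normalized counts of 7604, 8621, 6270 and 7803 in control and 7214, 5686, 5025 and 6756 in AF1 peptide mice. The 2 groups overlapped, since AF1 peptide replicates 1 and 4 exceeded control replicate 3. The log2 fold change of Lamp1 was -0.30 (SE 0.14, 95% interval -0.62 to 0.02). Lamp2, whose product also serves chaperone-mediated autophagy, ranged from 3630 to 4995 in control and from 2447 to 4685 in AF1 peptide mice, with a log2 fold change of -0.29 (SE 0.19, 95% interval -0.71 to 0.13), which was -0.101 without AF1 peptide replicate 3. Mcoln1, the calcium channel TRPML1, had counts of 609, 660, 611 and 764 in control and 789, 705, 652 and 617 in AF1 peptide mice, and these intermingled. Lamp1 shares some exon bases with its opposite-strand neighbour Grtp1. Without strand in counting, reads in the shared bases could not be told apart, and the strand setting is not given in the sources used here. Exons of Ctsa, Ctsb, Ctsl, Ctsz, Hexa, Ppt1, Becn1, Map1lc3b, Gabarapl1, Sqstm1 and Bnip3 also overlap an opposite-strand gene, and Ctsd and Glb1 overlap a gene on the same strand.

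Among the 9 cathepsins, lysosomal proteases, only Ctsf passed the threshold. Its normalized counts were 213, 271, 236 and 281 in control and 338, 283, 317 and 294 in AF1 peptide mice. Every AF1 peptide mouse was above every control mouse, though the nearest were 281 and 283, and Ctsf was the single member whose groups did not overlap, against 3.9% of tested genes. Ctsf rose from a mean of 250 ± 31.7 to 308 ± 24.4 (SD, 4 mice per group), a log2 fold change of 0.30 (SE 0.12, 95% interval 0.03 to 0.58, limma adjusted p = 0.763). The call was lost when control replicate 1 or 3, or AF1 peptide replicate 1 or 3, was left out, or when libraries were scaled to equal totals. Without AF1 peptide replicate 1 the log2 fold change was 0.26. No other gene's exons overlap those of Ctsf in GENCODE M21.

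The abundant proteases of bulk lysosomal protein breakdown did not pass the test. Ctsb had 15965, 19423, 15796 and 14412 in control and 14705, 17839, 14096 and 17162 in AF1 peptide mice. Ctsd had 9909, 12074, 8844 and 8876 in control and 7343, 9039, 8510 and 9397 in AF1 peptide mice. Both sets of values overlapped, with log2 fold changes of -0.04 for Ctsb and -0.21 for Ctsd. Ctsz and Ctsa, the latter also a protective protein for other hydrolases, had log2 fold changes of -0.03 and -0.02.

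Ctsl and Ctsh depended on AF1 peptide replicate 1. Ctsl, a cysteine protease, had normalized counts of 10111, 10745, 8090 and 10677 in control, 16819 in AF1 peptide replicate 1, and 6778, 6885 and 7011 in AF1 peptide replicates 2 to 4. The last 3 lay below every control mouse, and replicate 1 lay above every control mouse. With all mice the log2 fold change of Ctsl was -0.19 (SE 0.27, limma adjusted p = 0.892), and without replicate 1 it was -0.51 (SE 0.12, limma adjusted p = 0.452). Ctsh, an aminopeptidase, had 3465 in replicate 1 and 2031 to 2184 in the others, against 2109 to 3099 in control. A pseudogene, Gm49230, overlaps exons of Ctsl on the same strand, so reads may be shared between them.

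Ctss and Ctsc, which are prominent in immune cells, lay lowest in AF1 peptide replicate 1. Ctss had 144 there, against 343 to 467 in the other AF1 peptide mice and 330 to 537 in control, and Ctsc had 434, against 668 to 948 and 555 to 739. The log2 fold change of Ctss was -0.49 with all mice and -0.12 without replicate 1, and that of Ctsc was 0.06 and 0.29. The macrophage markers were lowest in the same mouse, for 14 of 15 genes, and their part in these values was not tested. In bulk RNA, fewer macrophages and less RNA per macrophage cannot be told apart.

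**Figure D3:**
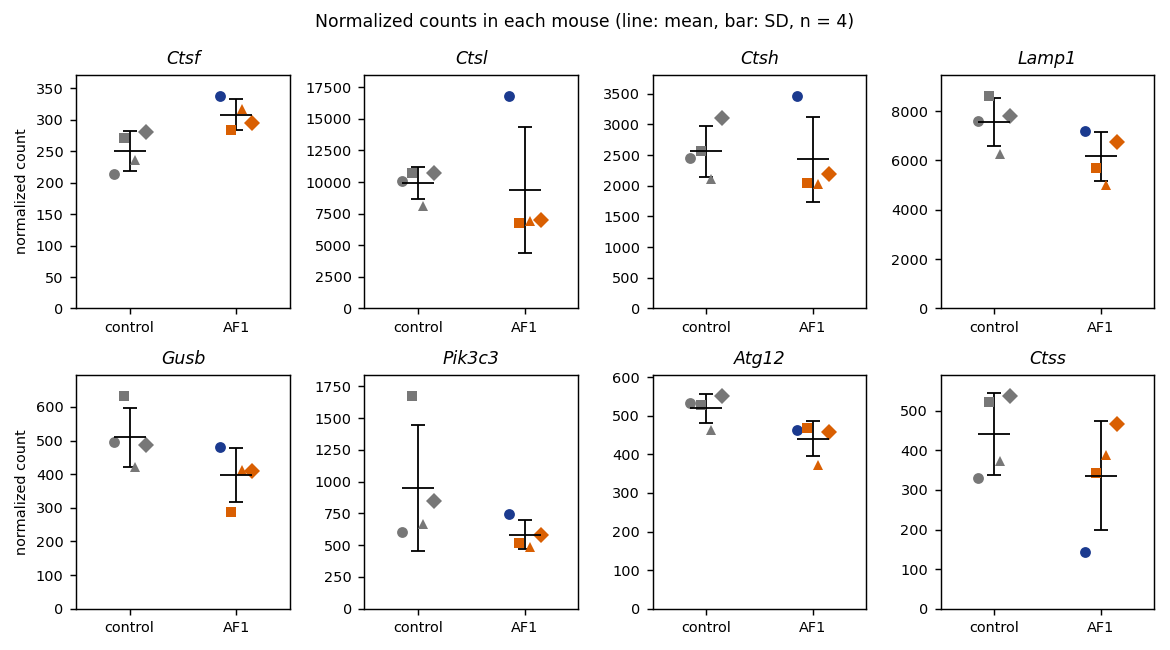
Normalized counts in each mouse (vertical axis, from 0) for 8 members, with control in gray, AF1 peptide replicate 1 in blue and AF1 peptide replicates 2 to 4 in orange, and with the mean as a line and the SD of 4 mice as a bar. Ctsf does not overlap between groups, and for Ctsl the blue point at 16819 is above all other mice while the orange points, 6778 to 7011, are below all control mice.

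The other hydrolases and the saposin precursor had lower means for 8 of 10 genes, and none was called. Gusb, the β-glucuronidase, had 497, 632, 422 and 488 in control and 480, 289, 411 and 408 in AF1 peptide mice. All but replicate 1 were below the control range, and the log2 fold change was -0.37 (SE 0.17, 95% interval -0.75 to 0.01). Ppt1, which removes palmitate from proteins, had 543, 585, 491 and 506 in control and 424, 488, 379 and 512 in AF1 peptide mice, and its log2 fold change was -0.24 (95% interval -0.51 to 0.02).

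Lipa, the acid lipase that hydrolyses cholesteryl esters and triglycerides, had 3893, 5037, 4267 and 4550 in control and 2776, 3675, 4121 and 4383 in AF1 peptide mice. Hexa, a subunit of β-hexosaminidase, had 1333, 1408, 1245 and 1236 in control and 868, 1103, 1268 and 1280 in AF1 peptide mice. Both were lowest in AF1 peptide replicate 1 and overlapped between groups, with log2 fold changes of -0.26 (SE 0.15) and -0.22 (SE 0.13). Gaa, the glycogen-degrading α-glucosidase, had a log2 fold change of -0.14, Psap -0.11, Tpp1 -0.08 and Glb1 -0.04. Naglu at 0.01 and Neu1 at 0.02 were the only 2 above 0, and both were below 0 under equal totals.

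The transcription factors were close to level. Tfeb had 376, 427, 409 and 398 in control and 482, 424, 401 and 358 in AF1 peptide mice. Tfe3 had 670, 640, 689 and 584 in control and 530, 705, 718 and 618 in AF1 peptide mice. The 95% intervals of the log2 fold change were -0.21 to 0.29 for Tfeb and -0.28 to 0.25 for Tfe3. These factors are controlled largely by where they sit in the cell, which RNA does not show.

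In autophagy initiation, Pik3c3, the catalytic subunit of the class III PI3-kinase, had the most negative log2 fold change of the 38 members over all 8 mice. It had normalized counts of 606, 1673, 670 and 848 in control and 744, 515, 489 and 577 in AF1 peptide mice. Control replicate 2 was far above the other control mice, and AF1 peptide replicate 1 lay within the control range while the other 3 lay below it. The log2 fold change was -0.60 (SE 0.28, 95% interval -1.23 to 0.02). Without control replicate 2 the log2 fold change of Pik3c3 was -0.29, and that of Ctss, -0.395, was more negative. Ulk1, the kinase that starts autophagy, had 2433, 2506, 2948 and 3191 in control and 3217, 2502, 2826 and 2382 in AF1 peptide mice. Becn1, a partner of that PI3-kinase, had 571, 584, 528 and 574 in control and 723, 482, 517 and 527 in AF1 peptide mice. Becn1 was above all control mice in AF1 peptide replicate 1 and below all of them in the other 3, and its log2 fold change was -0.02. Wipi1, which binds the lipid that the kinase makes, was 190 in replicate 1 and 278 to 363 in every other mouse.

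Of the 5 conjugation genes, which attach ATG8 proteins to membranes, 4 had lower means and none was called. Atg12 had 533, 529, 463 and 551 in control and 464, 469, 373 and 458 in AF1 peptide mice, with a log2 fold change of -0.24 (SE 0.11, 95% interval -0.48 to 0.01). The groups overlapped only through control replicate 3. Atg16l1, part of the ATG12 and ATG5 complex, was the only autophagy gene above 0 at this fit, with 839, 724, 927 and 910 in control, 1050, 857, 961 and 875 in AF1 peptide mice, and a log2 fold change of 0.14 (SE 0.11). Atg5 had 907, 979, 739 and 795 in control and 855, 842, 614 and 796 in AF1 peptide mice (log2 fold change -0.14). Atg3 and Atg7, the conjugating and activating enzymes, had log2 fold changes of -0.13 and -0.01.

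The ATG8 family coats autophagosomes and binds cargo receptors. Map1lc3a varied least of the 38 among AF1 peptide mice, at 1142 to 1170 in AF1 peptide mice against 1111 to 1280 in control. Map1lc3b, which encodes the usual LC3 marker, had 2123, 2582, 2207 and 2270 in control and 2661, 2332, 2221 and 1965 in AF1 peptide mice, with group means of 2296 and 2295. Gabarapl1 ranged from 3232 to 4709 in control and from 2947 to 4774 in AF1 peptide mice.

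The cargo receptors did not pass the test. Sqstm1 had 11445, 15538, 13557 and 10577 in control and 11957, 12170, 10770 and 11197 in AF1 peptide mice, with a log2 fold change of -0.13 (SE 0.14). Bnip3, a mitophagy receptor, had 4265, 5082, 3835 and 4892 in control and 6221, 5056, 3095 and 4124 in AF1 peptide mice. The AF1 peptide values of Bnip3 enclosed the control range on both sides, and its interval, -0.44 to 0.43, was among the wider ones.

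Without AF1 peptide replicate 1, 7 of 38 members were called, all lower (18.4%), against 10% of all 15994 genes tested then and 5.45% called lower. The 5 lysosome genes were Lamp1 (log2 fold change -0.38), Lamp2 (-0.41), Ctsh (-0.28), Ctsl (-0.51) and Gusb (-0.47). The 2 autophagy genes were Pik3c3 (-0.73) and Atg12 (-0.26). None passed the adjusted p, of which the smallest was 0.452. In these 7 mice the groups did not overlap for 6 members, against 9.12% of tested genes, and these were Ctsf, Ctsl, Gusb, Gaa, Becn1 and Pik3c3, of which only Ctsf was higher. Leaving out this mouse was 1 of the 8 ways of leaving out a mouse, and it gave the most calls.

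**Figure D4:**
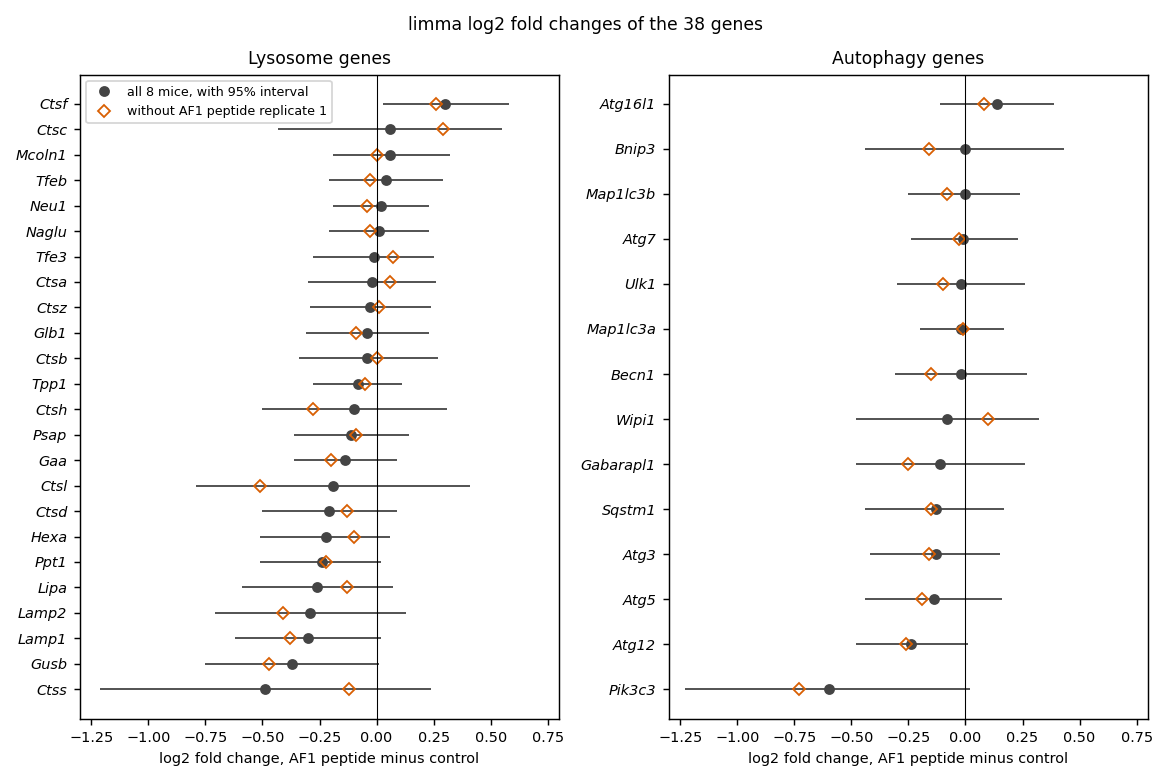
Log2 fold change, AF1 peptide minus control, for lysosome genes (left) and autophagy genes (right), with filled circles and 95% intervals from limma on all 8 mice and open diamonds from the fit without AF1 peptide replicate 1. The interval of Ctsf alone excludes 0, and the diamond of Ctsl moves from -0.19 to -0.51.

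Among AF1 peptide mice the members varied less without AF1 peptide replicate 1. The median coefficient of variation of the 38 members was 10.95% in control and 13.0% in AF1 peptide mice, and 8.585% in AF1 peptide mice without replicate 1. It was larger in AF1 peptide than in control mice for 26 members, and for 17 without replicate 1. The same medians over all tested genes are not given here. The control value of Pik3c3, 52.0%, came with the high count of control replicate 2. AF1 peptide replicate 1 was the highest or lowest mouse for 15 of 24 lysosome genes (62.5%) and 7 of 14 autophagy genes. Its share of all tested genes was 49.3%. For autophagy genes this mouse was the highest for 6 and the lowest for 1, and for lysosome genes the highest for 7 and the lowest for 8.

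A wider set of 167 other lysosome and autophagy genes, all tested, gave 6 calls, 4 lower and 2 higher. That is 3.59% of the set, against 6.19% of all tested genes. In the 109 lysosome genes 2 were called (1.83%), both lower. Arsg, a lysosomal sulfatase, had 600, 653, 579 and 587 in control and 321, 451, 575 and 479 in AF1 peptide mice (log2 fold change -0.43, SE 0.16). Atp6ap2, an accessory subunit of the proton pump that acidifies the lysosome, had 321, 474, 360 and 461 in control and 244, 318, 216 and 333 in AF1 peptide mice (log2 fold change -0.54, SE 0.18). It was the only gene called among 16 of the pump, whose median log2 fold change was -0.05.

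In the 58 other autophagy genes 4 were called (6.9%), against 6.19% of all tested genes. Atg14, a partner of Pik3c3, rose (333 to 358 in control, 380 to 440 in AF1 peptide mice, log2 fold change 0.24, SE 0.10), and Nrbf2, another partner, fell (513 to 611 and 442 to 482, log2 fold change -0.24, SE 0.10). Fundc1, a mitophagy receptor on the outer mitochondrial membrane, fell (log2 fold change -0.29, SE 0.13). All 6 genes called in the wider set had an adjusted p of 0.763. Without AF1 peptide replicate 1, 14 of the 167 were called (8.38%, against 10% of all tested genes), 9 lower and 5 higher, and the log2 fold change of Arsg was -0.27. None of the 24 other membrane and transport genes, 15 sorting genes, 18 nutrient sensing genes, 8 conjugation genes or 16 fusion genes was called over all 8 mice, with medians between -0.08 and 0.00. Without that mouse Npc2, Vps35, Lamtor1, Tsc2 and Vps16 of these lists were called.

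**Figure D5:**
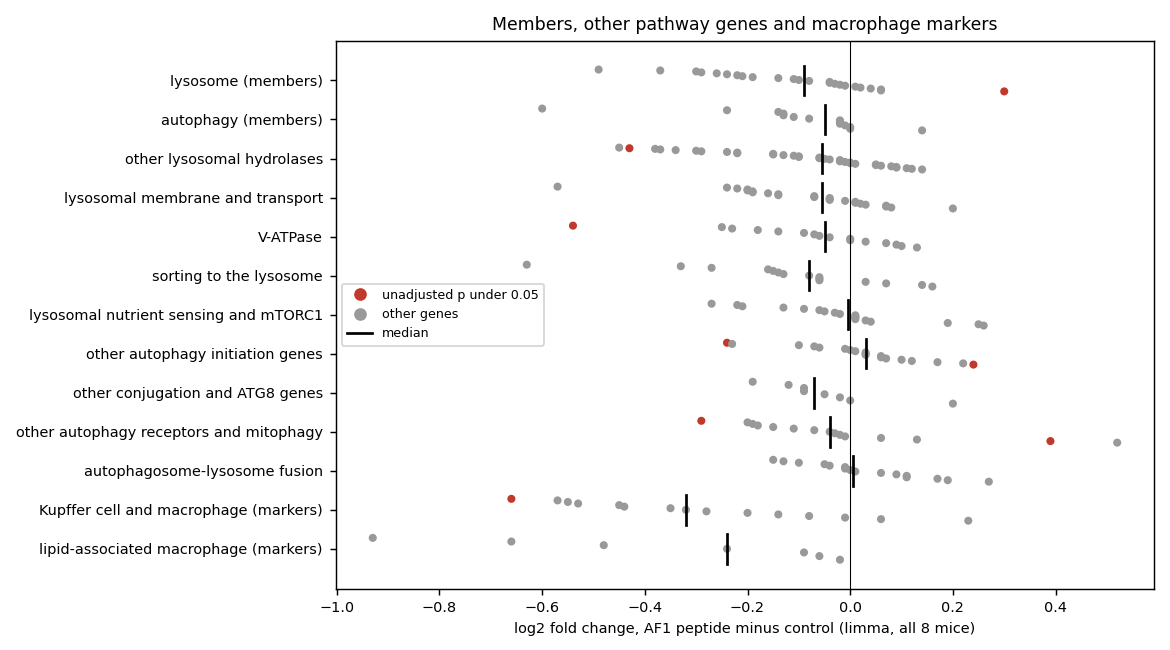
Log2 fold change, AF1 peptide minus control, of each gene (points) in the 2 groups of members, the wider pathway lists and 2 macrophage marker lists, with genes at an unadjusted p under 0.05 in red and the list median as a black line. List medians lie between -0.09 and 0.03 for the pathway lists, and at -0.32 and -0.24 for the macrophage markers.

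Markers of other liver cells were set beside these results. Of the 15 Kupffer cell and macrophage markers 13 had a log2 fold change below 0, with a median of -0.32, and 1 was called, Adgre1 (F4/80), at -0.66 (SE 0.27). Without AF1 peptide replicate 1 that median was -0.00 and 8 of 15 were lower. The median of the lysosome genes was -0.09 with and without that mouse, and that of the autophagy genes was -0.05 with it and -0.15 without. The 7 markers of lipid-associated macrophages summed to 1180 in that mouse, 1993 to 3545 in the other AF1 peptide mice and 2300 to 4046 in control. Stellate markers summed to 3793 in it (4515 to 8070 in the other 7 mice) and T cell, B cell and neutrophil markers to 123 (140 to 265). Cholangiocyte markers summed to 803 (1193 to 2291), of which Spp1, also a lipid-associated macrophage marker, made up 667. The other cholangiocyte markers, Krt19, Krt7, Epcam and Sox9, lay within their control ranges in that mouse. Endothelial markers summed to 6844 in that mouse, against 6706 to 8557 in the others. Hepatocyte markers were abundant in every mouse and summed to 1708081 in it and to 2085657 to 2537753 in the others, a sum made up mostly of Alb. Of the 7 hepatocyte markers, Alb, Apoa1 and Ttr were lowest in that mouse, while Cps1, Pck1, Serpina1a and Hnf4a were highest in it, with Cps1 at 34576 against 5979 to 13727 in the other mice. The part of these differences in the members' values was not tested.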

How the data were processed

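Liver RNA of 4 control and 4 AF1 peptide mice was made into stranded mRNA libraries. According to the paper and the submitters' processing notes, the authors trimmed reads with Trim Galore 0.6.7, aligned them with HISAT2, sorted them with SAMtools 1.17 (build mm39) and counted them with GenomicAlignments. The annotation, the strand setting and the normalization tool are not given in the sources used here. The authors deposited a signal per gene and mouse, the normalized count, which is a read count divided by a library size factor. All 172256 values were whole reads after division by the recovered step (100%, tolerance 0.001 reads), and the factors, 0.5475 to 1.2139, equalled median-of-ratios factors. Reads per mouse ranged from 23031880 to 45117528, and the smallest gene total was 10 reads.

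Groups and replicate numbers came from the labels. No library was a duplicate (chi-square per degree of freedom 16.18 to 346.59 within groups). The log2(normalized count + 1) of 15989 genes with a mean of at least 10 was tested two-sided with limma 3.58.1 in R 4.3.3, with a variance trend, and adjusted by Benjamini-Hochberg over all of them. The script was tested on simulated data. The rule for members uses symbols only, but members and lists were chosen with earlier results of these data known. Values in every mouse are given for called members, the 6 lysosome and 4 autophagy members with the smallest p, and 13 members picked by role, and called genes are named in the wider lists, except 1 that is counted but not reported here. Exon lengths and overlaps came from GENCODE M21 (85.9% of genes matched), and promoters from RefSeq, both GRCm38, which is not the build of the files. Alternatives were pseudocounts of 0.5 and 5, other filters, TMM and equal-total scaling, equal totals without mitochondrial genes, limma with no trend, unmoderated variances, a replicate block, count models of the recovered reads (edgeR 4.0.16, DESeq2 1.42.0), a 1.3-fold threshold, an adjusted threshold, and each mouse left out.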

Additional observations from a re-analysis of the deposited data

Results flagged for a closer look

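In 80 groups of 4 mice (each member and the 2 list means in each treatment), 3 had a mouse whose gap to its nearest neighbour, divided by the range of the group, exceeded Dixon's 95% critical value. At 1 in 20, chance would give 4.0. Ctsl was highest in AF1 peptide replicate 1, at 16819 against 7011 in the next mouse (ratio 0.977), and Ctsh in the same mouse, at 3465 against 2184 (ratio 0.894). Atg12 was lowest in AF1 peptide replicate 3, at 373 against 458 in the next mouse (ratio 0.884).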

How the results depend on the processing

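Over all tested genes, 542 (without control replicate 2) to 1603 (without AF1 peptide replicate 1) were called when 1 mouse was left out, 590 with the 1.3-fold threshold and 0 with the adjusted p. Calls among lysosome genes ranged from 0 (without control replicate 1 or AF1 peptide replicate 3) to 5 (without AF1 peptide replicate 1), and among autophagy genes from 0 to 2 (without control replicate 3 or AF1 peptide replicate 1). For lysosome genes there were 2 calls without the filter and 2 under equal totals, and 0 with the 1.3-fold or adjusted threshold. For autophagy genes there was 1 call without the filter, 1 under equal totals, 1 under equal totals without mitochondrial genes, 1 with each gene's own variance, 1 with DESeq2 and 2 with edgeR. The lysosome median was -0.181 under equal totals, where the median of all genes was -0.099. Ctsf was not called under either equal-total scaling.

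With the replicate block, 3 lysosome genes (Lamp1, Lamp2 and Ctss) and 1 autophagy gene (Atg12) were called, all lower, Ctsf was not, and 1244 genes were called in all. The numbers are shared by different mice, and deviations of same-numbered mice correlated at 0.235, 0.024, 0.216 and -0.064, so they were not taken as pairs.

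Under equal totals the sign turned for Mcoln1 (-0.027), Ctsc (-0.030), Naglu (-0.082), Neu1 (-0.072) and Tfeb (-0.049). It turned for Map1lc3b with DESeq2 (0.001) and for Bnip3 with edgeR (0.029) and DESeq2 (0.033). With 1 mouse left out, the log2 fold change crossed 0 for Mcoln1 (-0.002 to 0.135), Ctsa (-0.096 to 0.059), Ctsb (-0.098 to 0.046), Ctsc (-0.085 to 0.290), Ctsz (-0.079 to 0.056), Glb1 (-0.095 to 0.023), Naglu (-0.036 to 0.051), Neu1 (-0.041 to 0.064), Tfeb (-0.031 to 0.111), Tfe3 (-0.071 to 0.075), Ulk1 (-0.102 to 0.051), Becn1 (-0.149 to 0.046), Wipi1 (-0.206 to 0.104), Atg7 (-0.067 to 0.035), Map1lc3a (-0.043 to 0.025), Map1lc3b (-0.079 to 0.067) and Bnip3 (-0.163 to 0.173). The cause of these changes was not tested.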
